A study of Mus musculus with 12 samples.

Results

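Acetylcholine signalling in the mouse retina was followed through 10 genes, chosen by name: the 3 genes that make a neuron cholinergic (Chat, Slc18a3 and Slc5a7) and 7 genes for subunits of nicotinic acetylcholine receptors (Chrna3, Chrna4, Chrna6, Chrna7, Chrnb2, Chrnb3 and Chrnb4). All 10 were found in the table of 57073 gene models, each with 1 row. RNA was sequenced in 12 libraries from retinas of C57BL/6 mice, all taken on postnatal day 17. The 6 OIR libraries came from mice with oxygen-induced retinopathy, for which the labels give 75% oxygen, and the 6 normoxic libraries from mice in normoxic air. No transgene, deletion or drug is named for either group, and the labels give neither the sex nor the number of animals behind a library. In this model, high oxygen removes capillaries from the immature retina, and the return to room air leaves underperfused retina that becomes hypoxic.

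In the retina, acetylcholine is made by starburst amacrine cells, which lie as mirror-image populations on either side of the inner plexiform layer and compute the direction of motion. Chat encodes the enzyme that makes acetylcholine, Slc18a3 the transporter that loads it into vesicles and Slc5a7 the transporter that takes choline back up. Nicotinic receptors are pentameric cation channels opened by acetylcholine. Their subunits are found on ganglion cells and on some amacrine and bipolar cells. Receptors with the beta2 subunit carry the cholinergic retinal waves of early postnatal development. In bulk retina, fewer cells of a type and less RNA per cell cannot be told apart.

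Total counts ranged from 17366045 to 21594618 in OIR libraries and from 17361979 to 19390627 in normoxic libraries. All 8 rod photoreceptor markers listed for a check of the tissue were counted, with a summed level of 43533 to 48690 CPM in OIR libraries and 40089 to 45006 CPM in normoxic libraries (CPM, counts scaled to library size with TMM factors). Normoxic replicates 1 to 3 and 4 to 6 stood apart from each other in their counts as a whole and in several of the genes described here. Comparisons within each of these sets of replicate numbers are therefore given where they differ. In the OIR group, the counts as a whole differed most between replicate 6 and replicates 1 to 3. The labels name no batch. Nothing in the labels says that libraries of 1 group came from separate animals, so every p-value weighs a difference against a spread among libraries that could in part be technical.

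Of the 10 genes, 7 were lower in OIR, 1 was higher and 2 did not pass an adjusted p of 0.05 (edgeR's quasi-likelihood test with Benjamini-Hochberg adjustment over 18275 tested genes). Across all tested genes, 31.0% passed, 14.8% as lower and 16.2% as higher in OIR. The median log2 fold change (OIR minus normoxic) was -0.40 over the 10 genes and -0.01 over all tested genes. The groups of 6 libraries did not overlap for 6 of the 10 genes, 5 times as lower and 1 time as higher in OIR. Over all tested genes this held for 16.1%, with 6.60% lower and 9.47% higher. Within replicate numbers 1 to 3, 8 of the 10 genes passed (39.0% of all tested genes), 2 as higher and 6 as lower in OIR. These were not the same 8 genes, as Chrna3 passed as higher there and Chrna4 did not pass. Within 4 to 6, 6 of the 10 passed (20.0%), 1 as higher and 5 as lower.

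**Figure D1:**
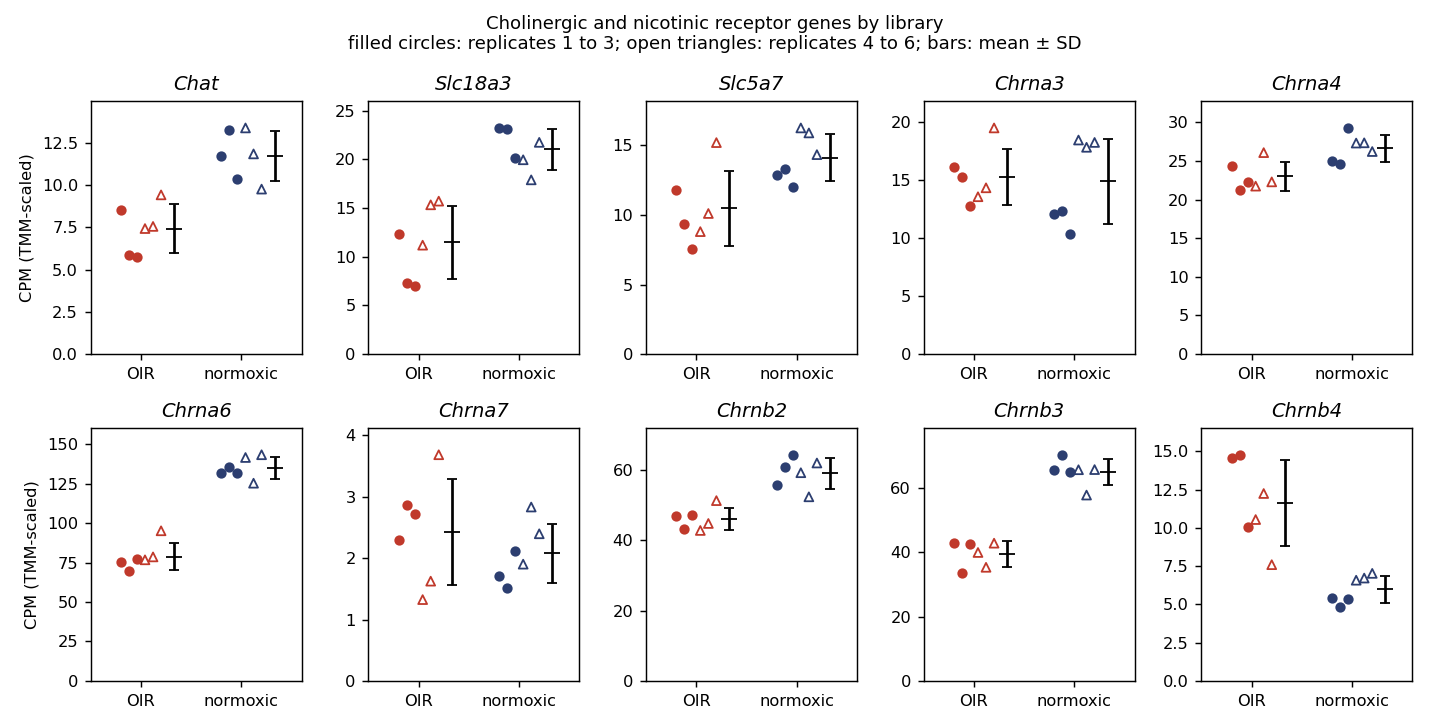
Level of each of the 10 genes in every library, in CPM, with OIR left and normoxic right in each panel. Circles are replicates 1 to 3, triangles replicates 4 to 6, and bars the mean ± SD of 6 libraries. The groups do not overlap for Chat, Slc18a3, Chrna6, Chrnb2 and Chrnb3, all lower in OIR, nor for Chrnb4, which is higher in OIR.

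The 3 genes of the cholinergic neuron all fell. Chat (ENSMUSG00000021919, chromosome 14, 32130160 to 32187946, minus strand, build GRCm39) ranged from 5.75 to 9.41 CPM in OIR libraries, with a median of 7.48 CPM. In normoxic libraries Chat ranged from 9.75 to 13.4 CPM, with a median of 11.8 CPM. Every OIR library thus lay below every normoxic one, though OIR replicate 6 and normoxic replicate 6 came close. Chat averaged 7.42 ± 1.45 CPM in OIR and 11.7 ± 1.47 CPM in normoxic libraries (SD, n = 6 each). The log2 fold change was -0.66 ± 0.13 (SE, edgeR adjusted p = 6.8e-04).

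Slc18a3 (ENSMUSG00000100241) lies inside the span of Chat on the same strand, at 32184395 to 32186807 of chromosome 14, in the arrangement known as the cholinergic gene locus. Reads from unspliced Chat RNA can fall on Slc18a3, so the separation of these counts is less certain. Slc18a3 ranged from 6.95 to 15.7 CPM around a median of 11.7 CPM in OIR libraries, and from 17.9 to 23.2 CPM around a median of 21.0 CPM in normoxic libraries. The groups did not overlap, and OIR replicates 2 and 3 were the lowest, at 7.33 and 6.95 CPM. Its log2 fold change was -0.88 ± 0.17, the most negative of the 10 (edgeR adjusted p = 5.2e-04). Within replicate numbers 1 to 3 the log2 fold change was -1.33 ± 0.16, and within 4 to 6 it was -0.50 ± 0.13 (edgeR adjusted p = 5.4e-07 and 0.0147). This difference between the sets was itself past the threshold, at 0.83 ± 0.23 on the log2 scale (edgeR interaction term, adjusted p = 0.0273, where 8.21% of all tested genes passed).

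The Slc18a3 to Chat ratio of counts had a median of 1.47 in OIR and 1.85 in normoxic libraries, with ranges of 1.21 to 2.03 and 1.49 to 2.23 that overlapped. The difference in mean log2 ratio was -0.27 and did not pass (exact two-sided permutation test, p = 0.0974, adjusted p = 0.13 over 4 ratios). Without OIR replicate 5 it was -0.36 and passed (exact permutation test, adjusted p = 0.0404), and within replicate numbers 4 to 6 it was 0.01.

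Slc5a7 (ENSMUSG00000023945, chromosome 17, 54580618 to 54606062) showed a smaller fall with overlap. OIR libraries ranged from 7.55 to 15.2 CPM (median 9.72 CPM) and normoxic libraries from 12.0 to 16.3 CPM (median 13.8 CPM). OIR replicate 6, at 15.2 CPM, was the one OIR library inside the normoxic range. The log2 fold change was -0.44 ± 0.14 (edgeR adjusted p = 0.0243). The call was lost without OIR replicate 2, 3 or 4, or without normoxic replicate 4 (edgeR adjusted p = 0.0521, 0.0574, 0.0557 and 0.0524), and within replicate numbers 4 to 6 (0.0725).

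The promoter windows of the cholinergic locus are shown because these genes fell together, and that of Chrnb4, the one gene that rose, is shown with that of its neighbour Chrna3. They are RefSeq sequences of build GRCm38.p6, all from the minus strand, and span 250 bases before to 50 after the annotated start. Capitals mark the core of the hypoxia response element, searched as ACGTG or GCGTG on both strands.
Chat, chr14:32465860-32466159: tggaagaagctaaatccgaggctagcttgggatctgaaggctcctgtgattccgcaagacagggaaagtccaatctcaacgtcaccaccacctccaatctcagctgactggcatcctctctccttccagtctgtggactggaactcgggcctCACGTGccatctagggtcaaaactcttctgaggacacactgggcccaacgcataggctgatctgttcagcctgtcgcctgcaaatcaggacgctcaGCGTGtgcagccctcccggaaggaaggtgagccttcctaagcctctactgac
Slc18a3, chr14:32464801-32465100: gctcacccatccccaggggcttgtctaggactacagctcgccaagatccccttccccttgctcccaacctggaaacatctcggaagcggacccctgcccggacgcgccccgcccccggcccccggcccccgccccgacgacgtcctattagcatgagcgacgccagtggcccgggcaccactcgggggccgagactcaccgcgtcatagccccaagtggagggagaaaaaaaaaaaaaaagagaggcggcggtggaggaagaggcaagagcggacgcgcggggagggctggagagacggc
Chrnb4, chr9:55048495-55048794: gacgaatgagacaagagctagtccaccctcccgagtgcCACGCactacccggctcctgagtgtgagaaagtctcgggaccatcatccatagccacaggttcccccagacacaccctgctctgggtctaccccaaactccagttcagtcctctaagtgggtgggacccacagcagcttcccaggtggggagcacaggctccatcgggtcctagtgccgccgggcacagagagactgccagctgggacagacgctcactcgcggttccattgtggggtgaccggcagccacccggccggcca
Chrna3, chr9:55026513-55026812: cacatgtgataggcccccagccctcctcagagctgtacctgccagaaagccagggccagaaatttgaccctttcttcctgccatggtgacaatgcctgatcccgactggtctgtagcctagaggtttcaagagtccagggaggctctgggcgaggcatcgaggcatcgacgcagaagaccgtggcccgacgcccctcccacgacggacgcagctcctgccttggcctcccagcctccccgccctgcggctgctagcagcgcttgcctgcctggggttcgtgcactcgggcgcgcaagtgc
The annotated starts of Chat and Slc18a3 lie 1059 bases apart. The Chat window held 3 matches, of which those at -98 and -97 relative to the start overlap as CACGTG and the third begins at -2. The Chrnb4 window held 1 match at -212, on the reverse strand, and the windows of Slc18a3 and Chrna3 held 0. Of the windows not shown, that of Chrna7 held 2 matches, that of Chrnb2 held 1, and those of Slc5a7 and Chrna4 held 0. Of 32851 promoter windows of this length, 43.8% held at least 1 match, so a match in a single window is common.

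Among the receptor genes, Chrna6 and Chrnb3 fell most. Chrna6 (ENSMUSG00000031491, chromosome 8, 27893240 to 27903972), which encodes the alpha6 subunit of high-affinity receptors of the visual and dopamine systems, ranged from 69.8 to 95.1 CPM in OIR libraries, with a median of 76.9 CPM. In normoxic libraries it ranged from 125 to 143 CPM, with a median of 134 CPM. The groups were separated by a gap about as wide as the OIR range itself. Its mean was 78.8 ± 8.55 CPM in OIR and 135 ± 6.80 CPM in normoxic libraries (SD, n = 6 each), a fold change of 0.584 (log2 -0.78 ± 0.06, edgeR adjusted p = 3.5e-08).

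Chrnb3 (ENSMUSG00000031492, chromosome 8, 27858739 to 27889758, plus strand) encodes an accessory subunit that assembles with alpha6. It is the genomic neighbour of Chrna6, with 3481 bases between their spans. It ranged from 33.6 to 42.9 CPM around a median of 41.2 CPM in OIR libraries, and from 57.8 to 70.4 CPM around a median of 65.7 CPM in normoxic libraries, again without overlap. Its fold change of 0.608 was close to that of Chrna6 (log2 -0.72 ± 0.07, edgeR adjusted p = 2.1e-07). Both genes kept similar fold changes within either set of replicate numbers, at -0.84 and -0.71 for Chrna6 and -0.75 and -0.68 for Chrnb3 on the log2 scale (sets 1 to 3 and 4 to 6).

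Chrnb2 (ENSMUSG00000027950, chromosome 3, 89653502 to 89671939), whose beta2 subunit pairs with alpha3, alpha4 or alpha6, fell less. It ranged from 42.8 to 51.3 CPM (median 45.9 CPM) in OIR libraries and from 52.3 to 64.3 CPM (median 59.9 CPM) in normoxic libraries. The highest OIR library, replicate 6, lay just under the lowest normoxic library, replicate 5. The log2 fold change was -0.36 ± 0.06 (edgeR adjusted p = 1.5e-04). Its span overlaps that of Adar on the other strand, and since the sources used here do not give the strand setting of the counting, reads of the overlap cannot be assigned with certainty.

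Chrna4 (ENSMUSG00000027577, chromosome 2, 180660173 to 180685339) encodes the alpha4 subunit of the most common brain receptor. OIR libraries ranged from 21.3 to 26.1 CPM (median 22.3 CPM) and normoxic libraries from 24.6 to 29.3 CPM (median 26.8 CPM). OIR replicate 5 lay inside the normoxic range and the other OIR libraries lay below it. The log2 fold change was -0.21 ± 0.07 (edgeR adjusted p = 0.0233). The call was lost without OIR replicate 2 or normoxic replicate 3 (edgeR adjusted p = 0.0516 and 0.0594), and within replicate numbers 1 to 3 and 4 to 6 (0.0717 and 0.155), where the log2 fold changes were -0.22 and -0.21. The span of Col20a1 ends 16 bases away on the other strand, so read assignment at that end is less certain.

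Chrnb4 went the other way. This gene (ENSMUSG00000035200, chromosome 9, 54935438 to 54956063) encodes the beta4 subunit, the partner of alpha3 in autonomic ganglia. It ranged from 7.60 to 14.8 CPM in OIR libraries (median 11.4 CPM) and from 4.82 to 7.03 CPM in normoxic libraries (median 6.00 CPM). OIR replicate 6 was the lowest OIR library and still lay above all normoxic ones. Its mean of 11.6 ± 2.80 CPM in OIR against 5.99 ± 0.899 CPM in normoxic libraries was a 1.94-fold rise (SD, n = 6 each), or 0.96 ± 0.15 on the log2 scale (edgeR adjusted p = 1.1e-04). The log2 fold change was 1.33 ± 0.16 within replicate numbers 1 to 3 and 0.58 ± 0.17 within 4 to 6 (edgeR adjusted p = 9.2e-07 and 0.0252). The difference between these sets, -0.75 ± 0.25, did not pass (edgeR interaction term, adjusted p = 0.0637).

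Chrna3 (ENSMUSG00000032303, chromosome 9, 54917395 to 54933846) encodes the alpha3 subunit and lies 1591 bases from Chrnb4 on the same strand. It ranged from 12.7 to 19.5 CPM (median 14.8 CPM) in OIR libraries and from 10.3 to 18.5 CPM (median 15.1 CPM) in normoxic libraries. The normoxic libraries fell into separate levels, 10.3 to 12.4 CPM in replicates 1 to 3 and 17.8 to 18.5 CPM in replicates 4 to 6, whereas OIR libraries of both sets overlapped. Over all 12 libraries the fold was 1.02 (95% interval 0.828 to 1.26, edgeR adjusted p = 0.894). Within replicate numbers 1 to 3 Chrna3 was higher in OIR (log2 0.34 ± 0.12, edgeR adjusted p = 0.0353), and within 4 to 6 its log2 fold change was -0.20 ± 0.13 (edgeR adjusted p = 0.331). The difference between the sets was -0.54 ± 0.19 and did not pass (edgeR interaction term, adjusted p = 0.0768).

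Chrna7 (ENSMUSG00000030525, chromosome 7, 62748440 to 62862317), which encodes the subunit of homomeric alpha7 channels, was the lowest of the 10. It ranged from 1.33 to 3.69 CPM (median 2.51 CPM) in OIR libraries and from 1.52 to 2.83 CPM (median 2.01 CPM) in normoxic libraries, and the groups overlapped widely. Only 268 counts over the OIR libraries and 229 over the normoxic libraries stood behind this comparison. The fold of 1.16 had a 95% interval of 0.818 to 1.66 (edgeR adjusted p = 0.54).

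**Figure D2:**
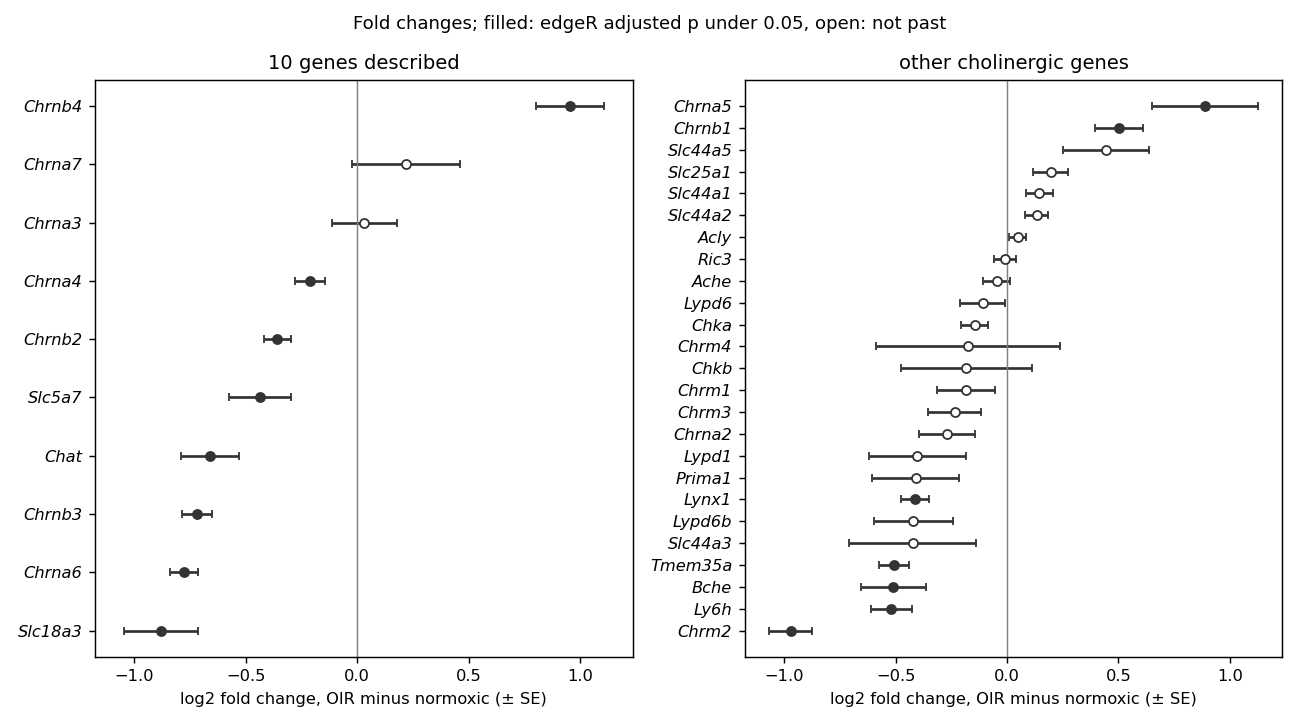
Log2 fold change (OIR minus normoxic) with its SE for the 10 genes on the left and for the 25 tested genes of a list of other cholinergic genes on the right. Filled points passed an edgeR adjusted p of 0.05. Chrnb4 on the left and Chrna5 and Chrnb1 on the right are the filled points above 0.

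Levels between genes were compared per length, as the deposited FPKM (fragments scaled to gene length and to sequencing depth). Chrna6 had the highest level of the 10 in both groups, at 26.9 ± 2.58 FPKM in OIR and 46.5 ± 2.35 FPKM in normoxic libraries. Chrnb3 came next, with 6.18 ± 0.624 FPKM in OIR and 10.2 ± 0.644 FPKM in normoxic libraries. In OIR the order went on with Chrnb2, Slc18a3, Chrna4, Chrnb4, Chrna3, Slc5a7, Chat and Chrna7. In normoxic libraries it was Slc18a3, Chrnb2, Chrna4, Chrna3, Slc5a7, Chat, Chrnb4 and Chrna7. In OIR the library ranges of neighbours in this order overlapped except between Chrna6 and Chrnb3, Chrna4 and Chrnb4, and Chat and Chrna7. In normoxic libraries the neighbours that overlapped were Chrnb3 with Slc18a3, Slc18a3 with Chrnb2, Chrna3 with Slc5a7, and Slc5a7 with Chat. Chrnb4 was thus sixth in OIR at 3.11 ± 0.765 FPKM and ninth in normoxic libraries at 1.61 ± 0.241 FPKM.

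The balance among the 7 receptor subunits described here differed between the groups. The 7 subunits summed to 49.7 ± 2.95 FPKM in OIR and 74.0 ± 3.37 FPKM in normoxic libraries. Chrna6 made up 51.3 to 57.8% of this sum in OIR libraries and 61.8 to 63.4% in normoxic libraries. Chrnb4 made up 3.61 to 8.59% in OIR libraries and 1.75 to 2.59% in normoxic libraries, and neither share overlapped between the groups. Chrna3, at 4.94 to 6.55% in OIR and 2.70 to 4.86% in normoxic libraries, did not overlap either. Nor did Chrnb2, at 10.7 to 11.5% in OIR and 8.96 to 10.5% in normoxic libraries. The share of Chrnb2 was thus higher in OIR although its level was lower. The shares of Chrna4, Chrna7 and Chrnb3 overlapped. The sum leaves out other nicotinic subunit genes. Of these, Chrna2, Chrna5 and Chrnb1 had 2.10, 2.45 and 5.63 FPKM in OIR and 2.55, 1.33 and 4.00 FPKM in normoxic libraries. These shares are a description, and RNA shares do not give the subunits of assembled receptors.

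Ratios of subunit counts within a library do not depend on the scaling between libraries. Chrnb4 to Chrnb2, the alternative beta partners, had a median of 0.261 in OIR libraries (0.149 to 0.342) and 0.105 in normoxic libraries (0.0799 to 0.129). The groups did not overlap, and the difference in mean log2 ratio was 1.29 (exact two-sided permutation test, adjusted p = 0.00433 over 4 ratios). The raw p of that permutation test, 0.00216, is the smallest possible with 6 libraries against 6. Chrnb4 was already higher and Chrnb2 already lower in OIR without overlap. The separation of their ratio thus followed from those differences, and its p-value adds no evidence. Chrna6 to Chrna3 had a median of 5.17 in OIR libraries (4.57 to 6.03) and 9.36 in normoxic libraries (7.01 to 12.7). These groups did not overlap either, with a difference of -0.84 (exact permutation test, p = 0.00216, adjusted p = 0.00433). Chrna6 was already lower in OIR without overlap, while Chrna3 had a fold of 1.02. This ratio difference lies close to the log2 fold change of Chrna6 alone, -0.78, so its p-value is not separate evidence. Chrna4 to Chrna3 had a median of 1.56 in OIR and 1.76 in normoxic libraries, with overlapping ranges and a difference of -0.27 (exact permutation test, p = 0.169, adjusted p = 0.169).

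Within replicate numbers 1 to 3 and 4 to 6, the Chrnb4 to Chrnb2 difference was 1.70 and 0.87 and the Chrna6 to Chrna3 difference -1.18 and -0.50. With 3 libraries against 3, an exact two-sided permutation test cannot go below 0.1.

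**Figure D3:**
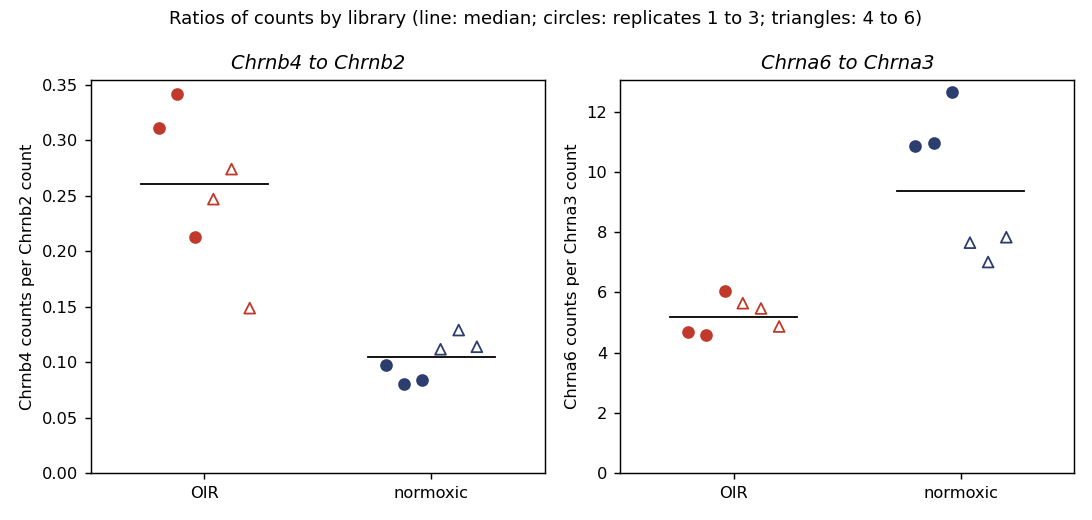
Counts of Chrnb4 per Chrnb2 count (left) and of Chrna6 per Chrna3 count (right) in each library, OIR left and normoxic right in each panel, on linear axes from 0. Lines are medians, circles replicates 1 to 3 and triangles replicates 4 to 6. The OIR libraries lie at 0.149 to 0.342 against 0.0799 to 0.129 in normoxic on the left, and at 4.57 to 6.03 against 7.01 to 12.7 in normoxic on the right.

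The wider cholinergic list held 34 other genes, of which 25 were tested, 2 rose, 5 fell and 18 did not pass. With a term for the replicate set, 6 passed as higher and 6 as lower, within replicate numbers 1 to 3 the counts were 5 and 5, within 4 to 6 they were 1 and 4, and without normoxic replicate 6 they were 5 and 5. Their median log2 fold change was -0.18, beside -0.01 over all tested genes, where 31.0% of genes passed against 7 of these 25. The largest fall among these was in Chrm2, the gene of the muscarinic M2 receptor, at 7.29 ± 0.752 CPM in OIR and 14.3 ± 1.23 CPM in normoxic libraries (SD, n = 6 each), without overlap (log2 -0.97 ± 0.10, edgeR adjusted p = 4.5e-07). The other muscarinic genes tested, Chrm1, Chrm3 and Chrm4, had log2 fold changes of -0.18, -0.24 and -0.17 and did not pass (edgeR adjusted p = 0.322, 0.142 and 0.792), with Chrm4 averaging under 1 CPM in both groups.

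The list held 7 genes for proteins that assemble or modulate nicotinic receptors, of which 3 fell and 4 did not pass. Of all tested genes, 14.8% passed as lower. Tmem35a, which encodes the receptor assembly chaperone NACHO, had 64.7 ± 6.96 CPM in OIR and 91.9 ± 5.35 CPM in normoxic libraries (log2 -0.51 ± 0.07, edgeR adjusted p = 1.2e-05). Lynx1 and Ly6h, genes of the prototoxin family that modulates these receptors, had log2 fold changes of -0.41 ± 0.06 and -0.52 ± 0.09 (edgeR adjusted p = 6.8e-05 and 2.9e-04). In these 3 genes the groups did not overlap, which held as lower in OIR for 6.60% of all tested genes. Ric3, which encodes another assembly chaperone, had a log2 fold change of -0.01 ± 0.05 (edgeR adjusted p = 0.912). The prototoxin genes Lypd6, Lypd6b and Lypd1 had -0.11 ± 0.10, -0.42 ± 0.18 and -0.40 ± 0.22 (edgeR adjusted p = 0.454, 0.0821 and 0.181). These 4 were named after their values were seen.

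The enzymes that break down acetylcholine are encoded by Ache and Bche. Ache, the acetylcholinesterase gene, had 106 ± 9.01 CPM in OIR and 109 ± 8.27 CPM in normoxic libraries, a fold of 0.968 with a 95% interval of 0.885 to 1.06 (edgeR adjusted p = 0.612). Within replicate numbers 1 to 3 it passed as lower in OIR (log2 -0.16 ± 0.06, edgeR adjusted p = 0.0405), and within 4 to 6 it did not (0.07 ± 0.06, 0.465). Bche, the butyrylcholinesterase gene, fell, with 3.13 ± 0.409 CPM in OIR and 4.47 ± 0.667 CPM in normoxic libraries (log2 -0.51 ± 0.15, edgeR adjusted p = 0.0128). The call of Bche was lost within replicate numbers 1 to 3 and 4 to 6 (0.0963 and 0.0968).

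The 2 genes of this list that passed as higher with all 12 libraries and no such term encode receptor subunits. Chrna5, which encodes an accessory subunit and lies 2331 bases beyond Chrna3 in the Chrnb4 cluster, ranged from 4.92 to 15.5 CPM in OIR libraries (median 6.48 CPM) and from 3.09 to 4.96 CPM in normoxic libraries (median 4.26 CPM). OIR replicate 6 alone stood at 15.5 CPM, with the other OIR libraries at 4.92 to 7.22 CPM. The log2 fold change was 0.89 ± 0.24 (edgeR adjusted p = 0.00795), and 0.56 ± 0.15 without OIR replicate 6 (edgeR adjusted p = 0.00916). Chrnb1, the beta subunit gene of the muscle receptor, had 14.3 ± 2.03 CPM in OIR and 10.1 ± 1.21 CPM in normoxic libraries (log2 0.50 ± 0.11, edgeR adjusted p = 0.00153; 0.115 within replicate numbers 4 to 6). The other muscle subunit genes were too low to be tested, and Chrna9 and Chrna10 had 0 counts in every library.

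Markers of starburst cells other than the acetylcholine genes did not all follow Chat. Of 11 listed, 5 fell, 1 rose and 5 did not pass, with a median log2 fold change of -0.36. Of all tested genes, 14.8% passed as lower and 16.2% as higher. Several are shared with other cells, such as Sox2 and Megf10 with Müller glia, Isl1 with ganglion and bipolar cells and Calb2 with ganglion cells. Megf10 and Megf11 encode recognition molecules that space starburst cells apart. Megf10 had 25.0 ± 3.22 CPM in OIR and 23.2 ± 2.51 CPM in normoxic libraries, a fold of 1.08 with a 95% interval of 0.946 to 1.23 (edgeR adjusted p = 0.395). Megf11 fell without overlap, to 35.4 ± 3.83 CPM in OIR libraries, against 48.9 ± 3.82 CPM in normoxic libraries (log2 -0.47 ± 0.07, edgeR adjusted p = 7.6e-05). Sox2 had a log2 fold change of 0.23 ± 0.09 and did not pass (edgeR adjusted p = 0.0658), though it passed without normoxic replicate 2 (0.0339) and with a term for the replicate set (0.0420). Within replicate numbers 1 to 3 its log2 fold change was 0.05 ± 0.08, and within 4 to 6 it was 0.42 ± 0.11 (edgeR adjusted p = 0.637 and 0.0144). Isl1 fell by 0.41 on the log2 scale (edgeR adjusted p = 6.8e-05).

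Some other genes of the starburst list were lower, while Fezf1, Rnd3 and Sema6a did not pass. Fezf1, Rnd3 and Sema6a had log2 fold changes of -0.36 ± 0.18, 0.16 ± 0.10 and -0.05 ± 0.06 (edgeR adjusted p = 0.137, 0.245 and 0.627). They were named after their values were seen. Kcnc2, a fast potassium channel gene, had a log2 fold change of -0.74 ± 0.08, Grm2, a glutamate receptor gene, -0.67 ± 0.13, and Calb2, the calretinin gene, -0.61 ± 0.12 (edgeR adjusted p = 2.1e-06, 4.6e-04 and 0.00105). The call of Grm2 was lost within replicate numbers 4 to 6 (edgeR adjusted p = 0.0884). Plxna2, a guidance receptor gene of starburst neurites, rose by 0.25 ± 0.08 (edgeR adjusted p = 0.0202). That call was lost without OIR replicate 2 or normoxic replicate 1 or 2 (edgeR adjusted p = 0.0582, 0.0514 and 0.0532), and within replicate numbers 4 to 6 (0.388).

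Markers of the cell classes around these genes moved too, beside 14.8% of all tested genes that passed as lower in OIR. All 12 amacrine markers fell, with a median log2 fold change of -0.42 and a summed level of 753 to 893 CPM in OIR against 1023 to 1212 CPM in normoxic libraries. Among them Gad1 had a log2 fold change of -0.71 and Pax6 -0.29 (edgeR adjusted p = 1.2e-05 and 1.8e-05). Of 14 ganglion cell markers, 7 fell and 7 did not pass, with a median of -0.46 and a summed level of 895 to 1246 CPM in OIR against 1174 to 1738 CPM in normoxic libraries. Nefh had a log2 fold change of -0.54 and Nefl -0.65 (edgeR adjusted p = 2.3e-07 and 9.0e-06). Those that did not pass were Rbpms, Pou4f1, Pou4f2, Sncg, Isl2, Gap43 and Tubb3. In that order, their log2 fold changes were -0.01, -0.12, -0.44, -0.21, -0.21, -0.44 and -0.28 (edgeR adjusted p of 0.0697 to 0.964). These 7 were named after their values were seen. None of these markers was at 0. The part of these shifts in the fall of the cholinergic and receptor genes was not tested.

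Other cell types shifted in the same libraries, where 16.2% of all tested genes passed as higher and 14.8% as lower in OIR. Microglial markers rose in 8 of 10 (summed level 129 to 184 CPM in OIR against 56.4 to 66.8 CPM in normoxic libraries; C1qb and C1qc rose 3.66-fold and 3.75-fold). Endothelial markers rose in 9 of 10 (470 to 638 CPM in OIR against 279 to 342 CPM in normoxic libraries; Vwf and Pecam1 rose 3.85-fold and 2.44-fold). Of 8 Müller glia markers, 2 rose and 4 fell (3358 to 4150 CPM in OIR against 3525 to 4244 CPM in normoxic libraries). Abca8a and Aqp4 fell, at log2 fold changes of -0.50 and -0.35, while Slc1a3 and Clu rose, at 0.33 and 0.32. Of 12 lens markers, 5 fell (7.28 to 24.3 CPM in OIR against 12.6 to 64.1 CPM in normoxic libraries), with Bfsp2 and Crybb2 at -2.01 and -2.25. Of the 9 pigment epithelium markers (60.3 to 119 CPM in OIR against 22.6 to 149 CPM in normoxic libraries), Rdh5 and Best1 came nearest the threshold, at -0.37 and -0.43 (edgeR adjusted p = 0.116 and 0.321). Of 8 rod markers 2 rose and 1 fell, with Rp1 and Pde6a at 0.25 and 0.14 and Pde6b at -0.13. Slc1a3, Clu and Pde6b were named after their values were seen. 1 lens marker was at 0 in every library, and no marker of the other lists was. The part of these cells in the 10 genes' changes was not tested.

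**Figure D4:**
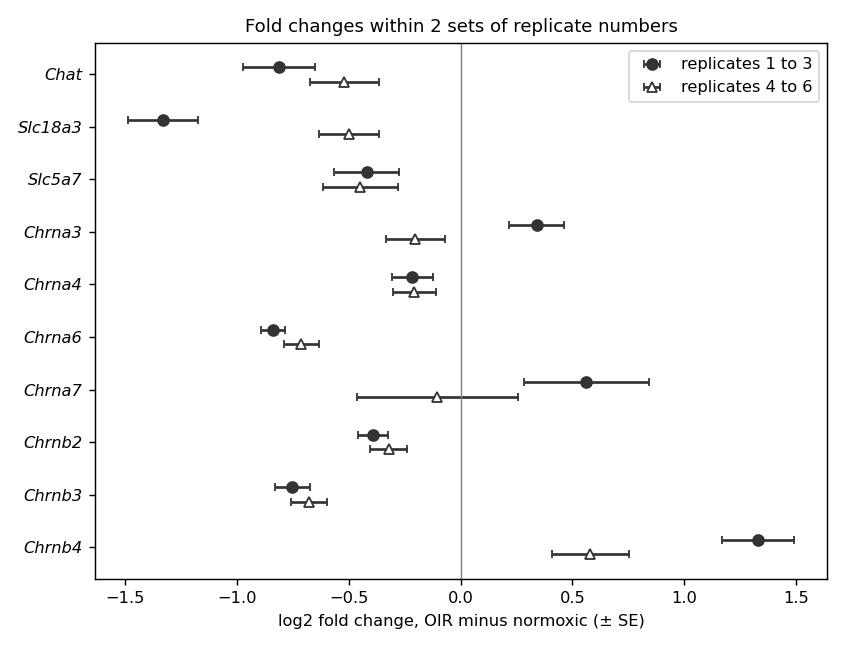
Log2 fold change (OIR minus normoxic) with its SE for each of the 10 genes within replicates 1 to 3 (circles) and within replicates 4 to 6 (triangles), from edgeR fits of 3 against 3 libraries. Chrna4, Chrna6, Chrnb2, Chrnb3 and Slc5a7 lie close together in both sets, Slc18a3 and Chrnb4 lie farther from 0 in replicates 1 to 3, and Chrna3 and Chrna7 lie on opposite sides of 0.

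Likeness to Chat and to Chrna6 was measured over the 12 libraries after removal of each group's mean, so that the difference between the groups did not enter. Among 13809 named genes with a mean of at least 1 CPM, those most like Chat were Pim3, Diras1, Rab9, Ahcy and Cpne5, with Pearson coefficients of 0.90, 0.88, 0.87, 0.87 and 0.87. Those most like Chrna6 were Cacng8, Ndrg4, Grm7, Armcx1 and Fbxo25, with coefficients of 0.94, 0.92, 0.90, 0.89 and 0.89. The rank coefficient of Cacng8 was lower, at 0.64, and OIR replicate 6 stands apart in Chrna6. These are the highest of many coefficients over few libraries that share depth and handling, and they are given as a description. Among the 45 pairs of the 10 genes, the highest coefficient was 0.80, between Slc5a7 and Chrna3, and Chat had 0.75 with Slc5a7 and 0.73 with Slc18a3. The lowest was -0.63, between Chrna6 and Chrnb4. Removal of the group means left differences between the replicate sets in these coefficients. In normoxic libraries Slc5a7 had 12.0 to 13.3 CPM in replicates 1 to 3 and 14.3 to 16.3 CPM in 4 to 6. Chrna3 had 10.3 to 12.4 CPM and 17.8 to 18.5 CPM there. OIR replicate 6 was the highest OIR library for both genes. The part of the sets and of that library in their coefficient was not tested.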

How the data were processed

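Poly-A RNA of 12 retina libraries was sequenced, per the labels' protocols. The authors deposited 1 table with raw counts per gene and FPKM, per the file headers. Trimmomatic, HISAT2 version 2.0.5, HTSeq and build GRCm39 are named without roles, per the submitters' processing notes. The sources used here do not give the annotation release, the gene length behind FPKM or the strand setting. Groups and replicate numbers came from the sample titles. Counts were filtered with filterByExpr (minimum count 10, total 15), TMM-scaled and tested over 18275 genes in R version 4.3.3 with the quasi-likelihood test of edgeR version 4.0.16, with Benjamini-Hochberg adjustment at 0.05, a procedure tested on simulated data. Of the TMM-scaled CPM, means are given with SD over 6 libraries. Ratios of counts, with 0.5 added, were tested with exact permutation tests.

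The members, lists and tests were chosen with earlier results of these data known. All 10 members are named. Other cholinergic and starburst genes are named where past the threshold with a mean of at least 1 CPM in a group or where the rule listed them (Ache, Chrna5, Chrm1 to Chrm4, Megf10, Megf11, Sox2, Isl1), and of the other lists the 2 genes with the smallest adjusted p. Genes named after their values were seen are marked as such in the text. Alternatives were median-of-ratios factors, library totals, other filters, a robust fit, a replicate block, replicate sets, DESeq2 version 1.42.0, limma version 3.58.1 on log2(FPKM + 1) and log2(FPKM + 0.1), and leaving out each library. The interaction of group and replicate set was added after seeing the data. Counts of the 30 within-group library pairs differed by more than sampling noise, with a chi-square over its degrees of freedom of 2.98 to 14.1. In the normoxic group this value was 2.98 to 3.91 for pairs within replicates 1 to 3 or within 4 to 6. For normoxic pairs across these sets it was 11.1 to 14.1. OIR pairs with replicate 6 had 7.14 to 11.3, and the other OIR pairs 3.84 to 8.95. The main fit held no term for the set, and each library was kept. Intervals use the fit's SE. Library totals of 17361979 to 21594618 limit the precision of low genes. RefSeq promoters were matched by symbol for 8 of the 10 genes.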

Additional observations from a re-analysis of the deposited data

Results flagged for a closer look

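Chrna6 in OIR replicate 6 stood at 95.1 CPM, with the other 5 OIR libraries at 69.8 to 78.6 CPM. Chrna5 in the same library stood at 15.5 CPM, with the others at 4.92 to 7.22 CPM. Both were singled out because the gap to the nearest library took up most of the group's range. OIR replicate 6 was also the highest OIR library for Chat, Slc18a3, Slc5a7, Chrna3, Chrna7, Chrnb2 and, narrowly, Chrnb3, and the lowest for Chrnb4. Over all genes, OIR pairs with this library had a chi-square over its degrees of freedom of 7.14 to 11.3. Other OIR pairs had 3.84 to 8.95. The part of this library as a whole in the 2 flagged values was not tested. Of 58 such groups examined, chance singles out about 1 in 20.

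The OIR minus normoxic difference of Slc18a3 was larger by size in replicates 1 to 3 than in replicates 4 to 6, with a difference between the sets (4 to 6 minus 1 to 3) of 0.83 ± 0.23 on the log2 scale (edgeR interaction term, adjusted p = 0.0273). Grm2 showed the same order, at 0.86 ± 0.15 (edgeR interaction term, adjusted p = 7.5e-04). The sets are replicate numbers and carry no label, and this comparison was chosen after seeing the data.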

How the results depend on the processing

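Of the 10 genes, 6 to 8 passed under the 12 other settings and 6 to 8 when each library was left out. Chat, Slc18a3, Chrna6, Chrnb2, Chrnb3 and Chrnb4 kept their call in every one of these fits. Over all genes, 5673 passed with 12 libraries, 7226 within replicate numbers 1 to 3 and 3671 within 4 to 6, each of 6 libraries, and 5073 to 5870 without 1 library. Of the other cholinergic genes, 11 passed with the replicate block (4 higher, 7 lower) and 12 with a term for the replicate set (6 higher, 6 lower), against 7 without (2 higher, 5 lower), and the cause was not tested.

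Chrna3 turned to -0.20 within replicate numbers 4 to 6 and ranged from -0.053 to 0.10 without 1 library, being below 0 without normoxic replicate 1, 2 or 3 or OIR replicate 6. Chrna7 turned to -0.10, Ache to 0.075 and Chrm1 to 0.00115 within 4 to 6. Chrm4 was 0.36 within 1 to 3, 0.059 with limma on log2(FPKM + 0.1), and -0.40 to 0.013 without 1 library. None of these passed in those fits, and the cause was not tested. The log2 ratio difference of Slc18a3 to Chat turned to 0.00679 and that of Chrna4 to Chrna3 to 0.010 within 4 to 6, and Slc18a3 to Chat ranged from -0.36 to -0.21 without 1 library. Within 1 to 3 and 4 to 6, Chrna6 to Chrna3 (-1.18 and -0.50) and Chrnb4 to Chrnb2 (1.70 and 0.87) could not pass with 3 against 3 libraries.

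Deviations of same-numbered OIR and normoxic libraries from their group means had correlations of -0.03 to 0.13, above 0.1 in 2 of 6. Such correlations cannot decide whether the numbers pair the samples. OIR replicate 3 had 0.075 to 0.13 with normoxic replicates 1 to 3 and -0.12 to -0.054 with 4 to 6. OIR replicate 5 had -0.13 to -0.099 with normoxic replicates 1 to 3 and 0.050 to 0.16 with 4 to 6. The other OIR libraries had -0.072 to 0.037. With the replicate block 8 of the 10 genes and 5675 genes in all passed. Chrna7 rested on 268 counts over the OIR and 229 over the normoxic libraries and Chrm4 on 88 and 99, and the part of depth in their spread was not tested.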
